A study of Mus musculus with 6 samples.

Results

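The genes of the lysosome, of the proton pump that acidifies it and of autophagy were taken from the read counts of mouse fat cells by their symbols. The rule took the cathepsins named Cts followed by 1 letter. Of the V0 and V1 sectors of the vacuolar proton pump, it took the genes whose symbols begin with Atp6v0 or Atp6v1. The rule also took Lamp1, Lamp2, Mcoln1, Tfeb, Tfe3, all numbered Atg genes, Ulk1, Ulk2, Becn1, Map1lc3a, Map1lc3b, Gabarap, Gabarapl1 and Sqstm1. It found 71 of the 22609 listed genes, 69 under these symbols and 2 under older ones (Tcfeb for Tfeb and Tcfe3 for Tfe3). Of the 71 members, 54 had enough reads to be tested and 17 did not.

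The cells were primary adipocytes, grown from the stromal vascular fraction of inguinal white fat and differentiated in culture. To determine how miR-182-5p changes gene expression in them, RNA was sequenced from 3 samples given a control and 3 samples given miR-182-5p. By the labels, all 6 samples came from male C57BL6 mice aged 3 weeks, and the cells received a control vector or miR182 by electroporation, whereas the methods of the study describe a mimic control and a miR-182-5p mimic delivered with a lipid reagent. The groups are called mimic control and miR-182-5p mimic here. The labels do not say whether the 3 samples of a group came from separate cultures or animals, so the p-values measure only the spread between these samples, which may be technical. Reads counted on genes lay between 25869810 and 28796712 per sample. The counts hold 0 reads for the Mir182 gene in each sample, and the mimic itself could not be checked in these poly(A) libraries.

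Lysosomes degrade proteins, lipids and sugars with hydrolases that work at acid pH, among them the cathepsin proteases, and the vacuolar proton pump supplies the acid by coupling ATP hydrolysis in its V1 sector to proton transport through its V0 sector. Autophagy brings cytoplasm and organelles to the lysosome in vesicles whose membrane carries lipid-linked proteins of the Atg8 family, such as LC3 and GABARAP. In fat cells autophagy is known for its part in differentiation and in the removal of mitochondria, and the factors TFEB, TFE3 and MITF switch on many lysosomal genes.

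A miRNA pairs with messenger RNAs mainly through its seed, bases 2 to 8, so the mature miR-182-5p (RefSeq, GRCm38.p6, chr6:30165962-30165986, minus strand) is shown with the seed in capitals, 5′ to 3′.
miR-182-5p: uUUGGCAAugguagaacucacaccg

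The 3′-UTRs of the members were searched for TTGCCAA, the match to the seed, and for TGCCAAA, the match to bases 2 to 7 followed by A, on the transcript strand. The longest annotated 3′-UTR of each gene was used (GENCODE M21, GRCm38). Among the 54 tested members, 2 held TTGCCAA (3.70%), against 12.5% of all 12518 tested genes with a known 3′-UTR, and 4 others held only TGCCAAA. With either match counted, the shares were 11.1% and 20.4%. None of the 10 tested cathepsins held TTGCCAA. All 6 sites lie in the last exon of the transcript that gave the 3′-UTR. The 6 sites are shown with 11 bases on each side and the match in capitals. Coding regions, 5′-UTRs and other 3′-UTRs of the members were not searched. Atp6v1d holds the 8-base form TTGCCAAA.
Atg2a: cagcctgcttgTTGCCAActggccgagag
Atp6v1d: tggcttggagcTTGCCAAAcaggctagact
Atg7: aaaagatggccTGCCAAAccttttttttt
Atp6v1c1: ggatttagttgTGCCAAAtttgggtcaga
Ctsl: actatcacccaTGCCAAAatccaccacat
Lamp2: ttgctaggcagTGCCAAAtgaaggcatta

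They lie at chr19:6262003-6262009 (Atg2a, plus strand), chr12:78841961-78841968 (Atp6v1d, minus), chr6:114859973-114859979 (Atg7, plus), chr15:38692311-38692317 (Atp6v1c1, plus), chr13:64359860-64359866 (Ctsl, minus) and chrX:38421005-38421011 (Lamp2, minus) on GRCm38. A match is a description of the letters and not a measured binding site.

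Of the 54 tested members, 21 were lower with miR-182-5p mimic and 11 were higher by the quasi-likelihood test of edgeR (p adjusted by Benjamini-Hochberg over 13117 genes, under 0.05), while 22 did not pass. The 21 that fell are 38.9% of the members, beside 23.5% of all genes tested, and the 11 that rose are 20.4%, beside 23.2%. The fall was carried by the cathepsins: all 10 that could be tested fell, and the other 44 members split into 11 lower and 11 higher. The median log2 fold change of the 54 members was -0.0052 and that of all genes tested was -0.0043. With a change of at least 1.5-fold required in addition, 1 member was called lower (Ctsk), which is 1.85% beside 5.48% of all genes, and 0 were called higher, beside 1.97%. The 3 mimic samples lay below all 3 control samples for 24 members (44.4%, beside 27.5% of all genes) and above them for 11 (20.4%, beside 27.3%).

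**Figure D1:**
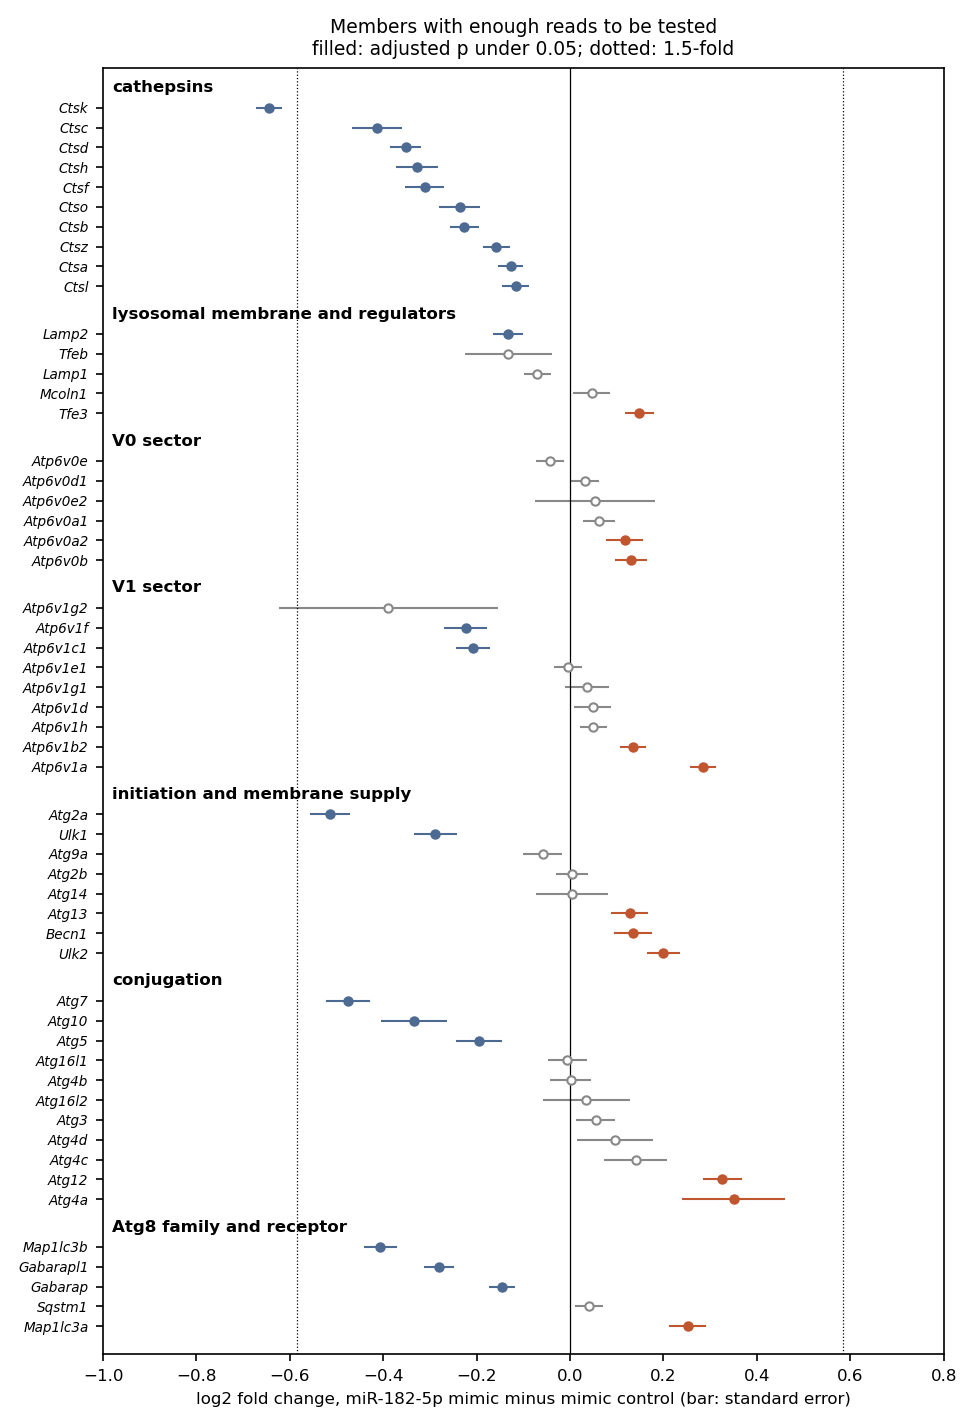
Log2 fold change (x axis, miR-182-5p mimic minus mimic control) of the 54 tested members, grouped by role, with the standard error as a bar. Filled points passed an adjusted p of 0.05, in blue where lower and orange where higher, and the dotted lines mark 1.5-fold. All 10 cathepsins lie left of 0, while the other groups have points on both sides or near 0.

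Cathepsins, the proteases of the lysosome, were the members that moved together. All 10 tested cathepsins fell, with log2 fold changes from -0.64 to -0.12 (median -0.27), and no mimic sample of any of them reached the lowest control sample. The CPM (reads of a gene per 1000000 reads, on library sizes scaled by TMM) summed over all cathepsins lay between 5683 and 5849.7 with mimic control and between 4789.9 and 4923 with mimic.

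Ctsk, a cysteine protease that cleaves collagen and elastin, fell most. It had 192, 190.3 and 188 CPM in mimic control replicates 1 to 3 and 123, 119 and 123 CPM with mimic. The groups were far apart relative to their spread, and the level fell by 36.0% (log2 fold change -0.64, SE 0.029, edgeR adjusted p = 4.5e-10). It ranked 74th of 13117 genes by p. Its share of the summed cathepsin CPM went from 3.28% ± 0.024 to 2.50% ± 0.060 (SD, n = 3).

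Ctsc, which trims the ends of granule proteases to activate them, had 24.8, 26.4 and 26.4 CPM with control and 19.3, 19.1 and 19.9 with mimic, a log2 fold change of -0.41 (SE 0.054). Ctsd, the major aspartic protease, had 1846, 1862 and 1761 CPM with control and 1391, 1426 and 1469 with mimic, a log2 fold change of -0.35 (SE 0.033). Ctsh, an aminopeptidase, had 119.9, 122 and 121 CPM with control and 105, 91.3 and 92.5 with mimic, a log2 fold change of -0.33 (SE 0.044). In these 3 genes all mimic samples were below all controls, and for Ctsh mimic replicate 1 stood nearer to the controls than the other two. Ctsf (log2 fold change -0.31), Ctso (-0.24) and Ctsb (-0.23), all cysteine proteases, fell by less. The smallest falls were those of Ctsz (-0.16), Ctsa (-0.13), a carboxypeptidase that also protects other lysosomal enzymes, and Ctsl (-0.12). The adjusted p of the 10 genes was at most 0.0039 (edgeR).

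**Figure D2:**
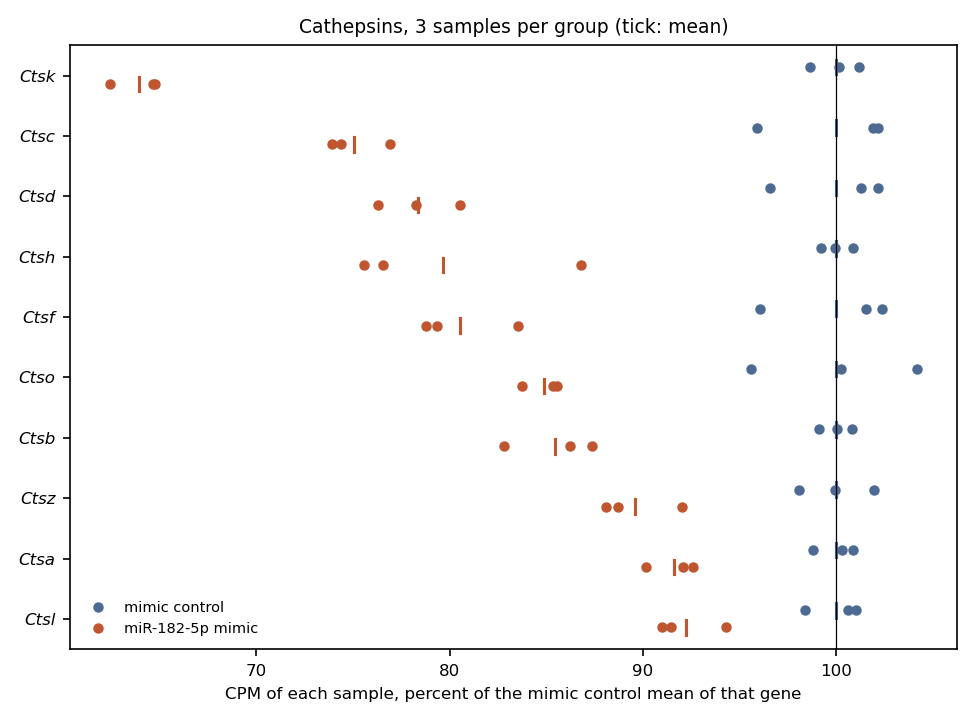
CPM of each sample (points) as a percent of the mimic control mean of that gene (x axis) for the 10 tested cathepsins, with a tick at each group's mean of 3 samples. The mimic points lie left of the control points in every row, from Ctsk at the top (-36.0% on average) to Ctsl at the bottom (-7.75%).

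Measured per length, the abundant cathepsins were Ctsd, Ctsb and Ctsl. Ctsd had 949 ± 28.4 CPM per kilobase of its reference transcript with control and 743 ± 20.4 with mimic (SD, n = 3). Ctsb had 443 ± 3.71 and 379 ± 10.5, and Ctsl 409 ± 5.77 and 377 ± 7.40. Ctsk stood at 126 ± 1.59 and 80.4 ± 1.65 on this scale, and Ctsc, the lowest, at 10.4 ± 0.37 and 7.79 ± 0.17. With mimic, Ctsb and Ctsl did not differ beyond their spread. Ctsb and Ctsd together made up 67.8% ± 0.098 of the summed cathepsin CPM with control and 66.4% ± 0.93 with mimic. Of the Ctsd exons, 808 bases are shared on the same strand with the gene model Gm49369, and reads there could be counted as ambiguous. Ctsl shares 395 exon bases on the same strand with Gm49230. On the opposite strand Ctsa, Ctsb and Ctsl share 819, 774 and 1742 exon bases with other genes. Whether the counting used the strand is not given in the sources used here.

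The other 8 cathepsins were at or near 0. Ctss, the protease of antigen-presenting cells, had 3 to 13 reads per sample, although it is the direct neighbour of Ctsk on mouse chromosome 3 (Ctsk at chr3:95499256-95509362 and Ctss at chr3:95526786-95556403, both plus strand, GRCm38). Ctsw, known from cytotoxic lymphocytes, had 7 to 15 reads. Ctsg, a granule protease of neutrophils, and Ctse had 0 reads in each sample. The same was true of Ctsj, Ctsm, Ctsq and Ctsr, placental cathepsins that lie between positions 61000179 and 61541839 of chromosome 13, the chromosome that also carries Ctsl. No test was made for these 8.

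Because macrophages are rich in cathepsins, the markers of other cells were set beside these values. Of 13 macrophage markers 4 had enough reads to be tested, and 3 of these had negative log2 fold changes (median of the 4, -0.42). Lyz2 fell, with 29 to 34 reads against 18 to 28 (log2 fold change -0.63, called at 1.5-fold). It was the only 1 of the 4 past the adjusted p (25%, beside 23.5% of all genes tested that fell). Cd68 had -0.24 without overlap between the groups and Cd14 had -0.59, neither past the adjusted p, and Csf1r had 0.11. The level summed over the 13 was 15.3 to 16.4 CPM with control and 13.03 to 16.9 with mimic, with overlap. The other 9 of the 13 had too few reads to be tested. Among them were Ptprc (0 to 4 reads), Emr1 (2 to 6), Itgam (0 to 2) and Aif1 (0 to 1). Ctss was also near 0. Of the 10 markers of fat cells, 7 fell (70%, beside 23.5% of all genes tested) and 1 (Lep) rose (10%, beside 23.2%). Their sum was 12701 to 13460.3 CPM with control and 8764 to 9927 with mimic. Within that list Fabp4, a fatty acid carrier, had a log2 fold change of -0.68, whereas Plin1, the coat protein of the lipid droplet, had -0.06 and did not pass the test. Of the 4 tested markers of fibroblasts and progenitors, Pdgfra, Cd34 and Ly6a fell (75%, beside 23.5% of all genes). Thy1 rose (25%, beside 23.2%). The sums were 1438 to 1473 CPM with control and 1167 to 1295 with mimic. The endothelial markers were low and their sum was also lower, at 7.78 to 9.15 CPM against 4.97 to 5.67. Of 3 tested, Tek fell (log2 fold change -1.31), which is 33.3%, beside 23.5% of all genes. Cdh5 had -0.14 and Kdr 0.43, and Pecam1 had 3 to 11 reads. None of the 4 T cell markers had enough reads to be tested. The part of these markers in the cathepsin values was not tested. In RNA from a whole culture, fewer cells of a type and less RNA per cell cannot be told apart.

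The lysosomal membrane moved less. Lamp2, a membrane glycoprotein that also takes part in chaperone-mediated autophagy, had 649, 699.6 and 679 CPM with control and 630.02, 616 and 604 with mimic. Its mimic samples were all lower, by a log2 fold change of -0.13 (SE 0.032, edgeR adjusted p = 0.0039). Lamp1, its close relative, had 1035, 1072 and 1076 CPM with control and 1019, 1014 and 998 with mimic, without overlap, but the log2 fold change of -0.07 missed the threshold (edgeR adjusted p = 0.0599, and 0.0467 with DESeq2). Mcoln1, the calcium channel of the lysosome, had a log2 fold change of 0.05 (adjusted p = 0.364).

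Of the transcription factors that drive lysosomal genes, Tfe3 rose and Tfeb gave no call. Tfe3 had 77.9, 76.2 and 77.7 CPM with control and 85.6, 85.3 and 86.1 with mimic (log2 fold change 0.15, SE 0.031, edgeR adjusted p = 0.0014). The groups did not overlap. Tfeb had 14.8, 12.02 and 12.4 CPM with control and 10.9, 11.7 and 13.2 with mimic, and the groups overlapped (log2 fold change -0.13, SE 0.093, adjusted p = 0.265). Per length, Tfe3 stood at 23.6 CPM per kilobase with control and Tfeb at 5.70. Mitf, the related factor, is no member but belongs to the pathway lists given further on: it fell by 0.95 on the log2 scale.

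TFE proteins bind the letters CACGTG, so the promoters in the RefSeq table (250 bases before to 50 after the start, GRCm38.p6) were searched for them. CACGTG reads the same on both strands, and GTCACGTG, the longer form that contains it, was searched on both strands. A promoter was given for 43 of the 54 tested members. CACGTG was present in 14 of these (32.6%), against 11.9% of the tested genes with a promoter and 8.09% of all genes with a promoter. GTCACGTG was present in 9 (20.9%), against 4.69% and 2.55%. By role, CACGTG was found for 4 of 8 cathepsins, 3 of 5 V0 genes, 1 of 5 V1 genes, 2 of 5 membrane genes and regulators, 1 of 7 initiation genes, 3 of 9 conjugation genes and 0 of 4 genes of the Atg8 group. Of the 14 members with CACGTG, 6 fell, 2 rose and 6 did not pass the test (median log2 fold change -0.057). Of the 29 with a promoter and no CACGTG, 12 fell, 4 rose and 13 did not pass (median -0.059).

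The 250 bases before the start are shown for 3 members that differ in this feature, with CACGTG in capitals. Ctsd fell and holds 2 copies (chr7:142387828-142388077, minus strand). Ctsk fell most and holds 0 (chr3:95498960-95499209, plus strand). Lamp1 missed the threshold and holds 4 (chr8:13158911-13159160, plus strand).
Ctsd: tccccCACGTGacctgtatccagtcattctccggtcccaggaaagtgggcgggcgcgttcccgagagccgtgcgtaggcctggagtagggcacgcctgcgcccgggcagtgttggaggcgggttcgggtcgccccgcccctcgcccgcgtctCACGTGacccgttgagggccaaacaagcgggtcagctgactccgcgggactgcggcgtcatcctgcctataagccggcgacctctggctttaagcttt
Ctsk: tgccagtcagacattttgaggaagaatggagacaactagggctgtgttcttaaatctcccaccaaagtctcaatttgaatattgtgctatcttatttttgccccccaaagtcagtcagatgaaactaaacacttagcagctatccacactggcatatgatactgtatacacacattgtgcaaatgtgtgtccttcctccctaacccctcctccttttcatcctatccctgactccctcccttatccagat
Lamp1: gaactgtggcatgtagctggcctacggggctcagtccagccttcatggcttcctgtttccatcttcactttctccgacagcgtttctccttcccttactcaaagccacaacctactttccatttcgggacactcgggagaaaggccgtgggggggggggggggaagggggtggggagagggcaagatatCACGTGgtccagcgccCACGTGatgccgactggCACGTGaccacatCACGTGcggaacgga

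The letters describe the window only, and no binding was measured.

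The subunits of the proton pump did not move together. Of 23 V0 and V1 genes 15 were tested, and 4 rose (26.7%, beside 23.2% of all genes), 2 fell (13.3%, beside 23.5%) and 9 did not pass, with a median log2 fold change of 0.05. No subunit was called at 1.5-fold. The summed V1 level was 818 to 835 CPM with control and 875 to 886 with mimic, without overlap. The summed V0 level was 511 to 520.7 against 521.6 to 549.6, so the groups were only just apart. Atp6v0c enters the V0 sum at 0 to 1 reads per sample. Without Atp6v1a the V1 sum was 614 to 629.8 CPM against 624 to 633, and the groups overlapped.

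Atp6v1a, the catalytic subunit that hydrolyses ATP, rose most. It had 204, 205 and 205 CPM with control and 244, 253 and 251 with mimic. All mimic samples were above all controls, by 21.8% on average (log2 fold change 0.28, SE 0.027, edgeR adjusted p = 1.2e-06). Its partner in the V1 ring, Atp6v1b2, had 179.8, 186 and 182 CPM with control and 198, 200.2 and 204 with mimic, again without overlap (log2 fold change 0.14, SE 0.028). In the same sector Atp6v1f, a subunit of the central rotor, fell. It had 35.6, 36.4 and 35.1 CPM with control and 30.7, 30.5 and 30.5 with mimic (log2 fold change -0.22, SE 0.046). Atp6v1c1, which joins the peripheral stalk to the membrane sector, had 67.8, 67.5 and 67.3 CPM with control and 58.3, 59.9 and 57.3 with mimic (log2 fold change -0.21, SE 0.036). Subunits of the same complex therefore changed in opposite directions. Atp6v1d, the other rotor subunit, which holds the 8-base site shown above, had a log2 fold change of 0.05 (SE 0.039, adjusted p = 0.34). For Atp6v1e1, Atp6v1g1, Atp6v1h and Atp6v1g2 the adjusted p was 0.187 or more.

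In the V0 sector Atp6v0b, of the proton-carrying ring, and Atp6v0a2, a form of the large membrane subunit, rose. Atp6v0b had 105, 99.5 and 103 CPM with control and 109.99, 117 and 109.8 with mimic (log2 fold change 0.13, SE 0.034, edgeR adjusted p = 0.0063). Atp6v0a2 had 66.8, 68.5 and 65.4 CPM with control and 69.2, 73.4 and 75.2 with mimic (log2 fold change 0.12, SE 0.039, adjusted p = 0.025). The groups overlapped in neither gene, but for Atp6v0a2 the lowest mimic sample was only just above the highest control. The call of Atp6v0a2 was lost without control replicate 1 or 3 or mimic replicate 2 or 3 (adjusted p 0.064, 0.096, 0.068 and 0.095). Atp6v0a1, Atp6v0d1, Atp6v0e and Atp6v0e2 had log2 fold changes between -0.04 and 0.06 and did not pass.

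Several subunits come in alternative forms, and the form used differed sharply in level. Of the a subunit, Atp6v0a1 had 26.2 ± 0.58 CPM per kilobase with control and Atp6v0a2 12.5 ± 0.28, while Atp6v0a4, the form of kidney and inner ear, had 5 to 13 reads per sample. Of the B subunit, Atp6v1b2 had 64.6 ± 1.05 CPM per kilobase and Atp6v1b1, the kidney form, 0.12 ± 0.032 (4 to 7 reads). Atp6v0d2, the form of osteoclasts and some macrophages, had 0 to 7 reads beside 80.0 ± 0.85 CPM per kilobase for Atp6v0d1. The kidney form Atp6v1c2 had 1 to 7 reads, and Atp6v1e2, the form of testis, and Atp6v1g3 had 0. Among the forms that the rule took, both groups used the same ones. Forms listed under other symbols are not members.

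**Figure D3:**
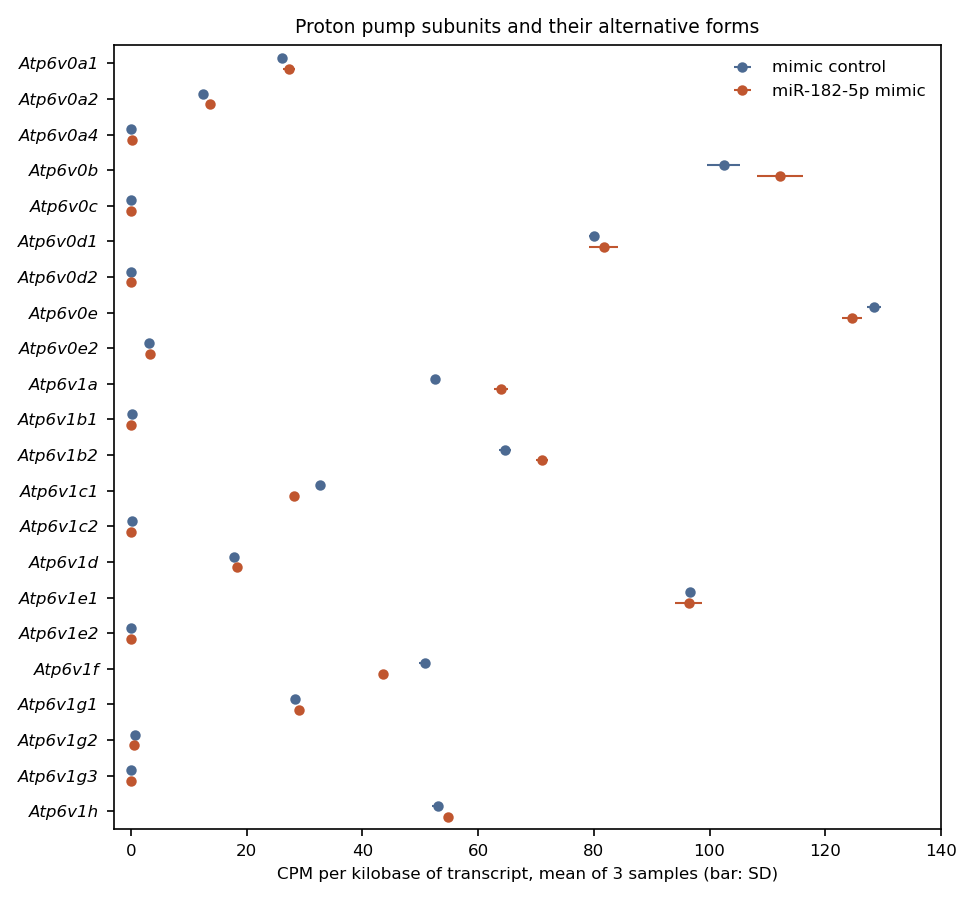
Level of each proton pump subunit taken by the rule in CPM per kilobase of transcript (x axis, mean of 3 samples, bar SD), with mimic control in blue and miR-182-5p mimic in orange. The tissue-restricted forms lie at or near 0 in both groups. Atp6v0c is also drawn near 0, but its level was not read from these counts. Atp6v1a and Atp6v1b2 lie higher with mimic, and Atp6v1f and Atp6v1c1 lie lower.

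Atp6v0c, which codes for the main proteolipid of the proton-carrying ring, is listed at 0 to 1 reads per sample. Of the 50-base stretches of its transcript, 32.5% also occur in its processed copies Atp6v0c-ps1 and Atp6v0c-ps2 in the reference. The other stretches occur in the transcripts of no other annotated gene. Reads with more than 1 place to align were kept apart from the gene counts. The cause of the low count was not tested. Atp6v0c-ps2, which the rule also takes, had 0 reads. The level of this subunit was not read from these counts.

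Among the genes that start autophagosomes and supply their membrane, 2 fell (25%), 3 rose (37.5%) and 3 did not pass, beside 23.5% lower and 23.2% higher of all genes. Atg2a, a lipid transfer protein that feeds the growing membrane, had 68.4, 66.7 and 64.9 CPM with control and 45.5, 49.0 and 45.6 with mimic. Its groups were well separated (log2 fold change -0.51, SE 0.043, edgeR adjusted p = 3.3e-07), the second largest fall of the members after Ctsk, and it is 1 of the 2 members that hold TTGCCAA. Its paralog Atg2b had 83.2, 82.4 and 85.6 CPM with control and 84.7, 85.4 and 81.9 with mimic, a log2 fold change of 0.00 (SE 0.033).

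The kinases Ulk1 and Ulk2, which start the process, moved apart. Ulk1 had 69.2, 63.1 and 64.9 CPM with control and 51.4, 54.1 and 55.9 with mimic (log2 fold change -0.29, SE 0.046, edgeR adjusted p = 0.00014). Ulk2 had 78.1, 82.8 and 82.6 CPM with control and 90.8, 93.7 and 95.2 with mimic (log2 fold change 0.20, SE 0.035, edgeR adjusted p = 0.00033). Neither gene overlapped between groups, and Ulk1 made up 44.7% ± 1.96 of the CPM of the pair with control and 36.6% ± 0.43 with mimic (SD, n = 3). Becn1, a subunit of the lipid kinase complex that marks the membrane, had 76.7, 72.3 and 73.8 CPM with control and 85.9, 78.0 and 80.3 with mimic (log2 fold change 0.13, SE 0.041, adjusted p = 0.015). Atg13, the partner of the Ulk kinases, had a log2 fold change of 0.13 (SE 0.040, adjusted p = 0.017). Both changes were small. The call of Becn1 was lost without control replicate 2 or 3 or mimic replicate 1 (adjusted p 0.067, 0.05001 and 0.055), and that of Atg13 without control replicate 3 or mimic replicate 3 (0.0799 and 0.061). Becn1 also shares 3104 exon bases with Cntd1 on the opposite strand, and whether the counting used the strand is not given in the sources used here. Atg9a and Atg14 did not pass, and Atg9b had 1 to 8 reads. Atg9a shares 1832 exon bases on the same strand with Gm29253, where reads could be counted as ambiguous.

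The conjugation genes attach Atg8 proteins to lipid and Atg12 to Atg5. Of 11 tested, 3 fell (27.3%), 2 rose (18.2%) and 6 did not pass, shares near the 23.5% and 23.2% of all genes. Atg7, the activating enzyme for both reactions, had 45.8, 45.2 and 46.4 CPM with control and 31.4, 33.3 and 34.1 with mimic. No sample overlapped, and the level fell by 28.0% (log2 fold change -0.47, SE 0.047, edgeR adjusted p = 1.7e-06). Atg10, the enzyme that passes Atg12 on to Atg5, had 12.3, 12.8 and 12.4 CPM with control and 10.1, 10.3 and 9.35 with mimic (log2 fold change -0.33, SE 0.071). Atg5, the acceptor, had 33.3, 33.7 and 35.8 CPM with control and 30.3, 29.3 and 30.2 with mimic (log2 fold change -0.19, SE 0.049).

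Atg12, the modifier itself, rose while its enzymes and acceptor fell. It had 47.0, 50.0045 and 46.4 CPM with control and 59.2, 60.5 and 60.1 with mimic (log2 fold change 0.33, SE 0.042, edgeR adjusted p = 2.0e-05). Atg4a, a protease that trims Atg8 proteins, had a log2 fold change of 0.35 (SE 0.11, adjusted p = 0.018) at 112 to 176 reads per sample. Its 50-base stretches are shared with a processed copy for 63.6% of its transcript, so its count is uncertain, and the call was lost without control replicate 1 or 3 or mimic replicate 2 (adjusted p 0.077, 0.064 and 0.055). The other proteases Atg4b, Atg4c and Atg4d, the transfer enzyme Atg3 and the scaffolds Atg16l1 and Atg16l2 had log2 fold changes from -0.01 to 0.14 and did not pass.

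The Atg8 proteins moved unequally. Map1lc3b, the LC3 form most used as an autophagosome marker, had 108.9, 106 and 106 CPM with control and 79.4, 84.4 and 78.7 with mimic. All mimic samples were lower (log2 fold change -0.41, SE 0.035, edgeR adjusted p = 4.0e-07). Gabarapl1 had 118, 114 and 112 CPM with control and 96.3, 93.7 and 92.5 with mimic (log2 fold change -0.28, SE 0.032, edgeR adjusted p = 6.4e-06). Gabarap had 376, 372 and 361 CPM with control and 328, 337 and 338 with mimic (log2 fold change -0.15, SE 0.028). It was the most abundant per length of the Atg8 genes that the rule took (274 ± 5.60 CPM per kilobase with control).

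Map1lc3a alone of the 4 was higher with mimic. It had 131, 121 and 122 CPM with control and 144, 157 and 144 with mimic, without overlap (log2 fold change 0.25, SE 0.040, edgeR adjusted p = 0.00013). Its share of the CPM of the pair Map1lc3a and Map1lc3b was 53.8% ± 0.74 with control and 64.8% ± 0.24 with mimic (SD, n = 3). Sqstm1, the receptor p62 that binds cargo to LC3, had 609, 593 and 596 CPM with control and 632, 619 and 596 with mimic. Its groups overlapped in range and no change was called (log2 fold change 0.04, SE 0.030, adjusted p = 0.30).

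**Figure D4:**
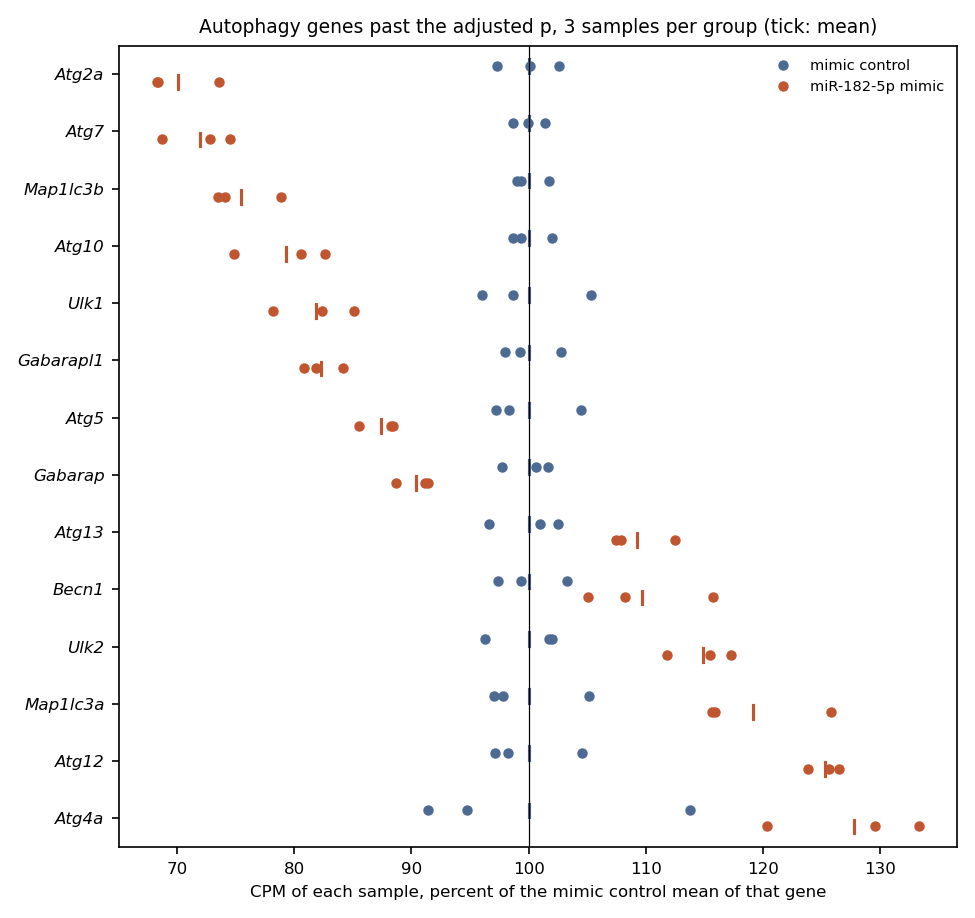
CPM of each sample (points) as a percent of the mimic control mean of that gene (x axis) for the 14 autophagy members past an adjusted p of 0.05, with a tick at each group's mean of 3 samples. The 8 genes from Atg2a to Gabarap lie lower with mimic and the 6 from Atg13 to Atg4a lie higher, among them paralog pairs on opposite sides (Map1lc3b and Map1lc3a, Ulk1 and Ulk2).

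Of the 6 members with a match to the miRNA, Atg2a, with TTGCCAA, fell, and so did Atg7, Atp6v1c1, Ctsl and Lamp2, which hold only TGCCAAA. Their log2 fold changes lay between -0.51 and -0.12. The other, Atp6v1d, has the longest match and did not pass the test. For comparison, 38.9% of all 54 tested members fell, beside 23.5% of all genes. The share that fell among all genes with a match was not taken. The 16 other members that fell, Ctsk, Ctsd, Map1lc3b and Ulk1 among them, hold neither match in the 3′-UTR used here. For Ctsl and Lamp2 the 3′-UTR used (4761 and 2205 bases) is longer than the whole reference transcript (1971 and 1769 bases). It came from another transcript of the gene, and whether the reference transcript holds the site was not tested.

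To see whether other genes of the same pathways moved alike, 4 lists of 114 genes outside the members were read in the same fit, and 112 were tested. Of these 23 rose (20.5%, beside 23.2% of all genes) and 47 fell (42.0%, beside 23.5%). At 1.5-fold 1 was called higher (0.893%, beside 1.97%) and 6 lower (5.36%, beside 5.48%), shares no larger than those of all genes. Without mimic control replicate 1 the genes that rose came to 15. Of 34 other lysosomal hydrolases and activators, 20 fell (58.8%) and 3 rose (8.82%), with a median log2 fold change of -0.16. Scpep1, a carboxypeptidase related to Ctsa, had 419, 429 and 423 CPM with control and 282, 276 and 276 with mimic (log2 fold change -0.61, SE 0.027), and Hexa, which degrades gangliosides, fell by 0.37. On the other side Pla2g15, the lysosomal phospholipase, rose by 0.26 and Ids, which degrades heparan sulfate, by 0.18. Their groups did not overlap.

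Of 25 genes for the lysosomal membrane, transport and sorting, 12 fell (48.0%, beside 23.5% of all genes). In the same list 5 rose (20%, beside 23.2%), and the median was -0.11. Ostm1, the partner of the chloride exchanger of the lysosome, had 48.1, 50.3 and 52.8 CPM with control and 24.0, 23.3 and 21.7 with mimic, below all controls (log2 fold change -1.13, SE 0.054). Nagpa, which uncovers the mannose 6-phosphate tag on new hydrolases, fell by 0.83 and Igf2r, the large receptor for that tag, by 0.36, while M6pr, the small receptor, rose by 0.15 and the channel Tpcn2 by 0.25.

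Of 20 tested genes for nutrient sensing on the lysosome, 7 fell (35.0%, beside 23.5% of all genes). In the same list 4 rose (20%, beside 23.2%), and the median was -0.08. Mitf had 17.1, 20.3 and 16.4 CPM with control and 9.45, 8.62 and 9.81 with mimic (log2 fold change -0.95, SE 0.088). Rragd, a Rag GTPase, fell by 0.76 at low levels (2.11 to 3.33 CPM against 1.54 to 1.71), and Lamtor1 (listed as 2400001E08Rik), which anchors the Rag proteins to the lysosome, by 0.28. Rptor, a subunit of the mTORC1 kinase, rose by 0.17 and Rragc by 0.10.

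Of 33 other autophagy genes, 8 fell (24.2%) and 11 rose (33.3%), with a median of 0.03. Nrbf2, a partner of the Becn1 complex, had 8.45, 9.34 and 7.62 CPM with control and 15.2, 17.8 and 16.7 with mimic (log2 fold change 0.96, SE 0.087). Fam134b, a receptor for autophagy of the endoplasmic reticulum, fell by 1.09 at 0.49 to 1.38 CPM. Pink1 and Wipi2, which act in the removal of mitochondria and in early autophagosomes, fell by 0.54 and 0.27, and the mitochondrial receptor Bnip3 rose by 0.36. Of the 112 genes, 17 held TTGCCAA in the 3′-UTR (15.2%), against 12.5% of all tested genes. With TGCCAAA counted as well, the shares were 22.3% and 20.4%. Of the 17 with TTGCCAA, 8 fell, 3 rose and 6 did not pass. For comparison, 42.0% of the 112 genes fell and 20.5% rose, and of all genes tested 23.5% fell and 23.2% rose. The 3 that rose with the match were Bnip3, in the 8-base form, Ids and Tecpr2 (log2 fold change 0.26), and Galc and Wipi1, also with the 8-base form, did not pass (-0.17 and -0.03). The sites of Ostm1, Mitf and Fam134b are shown as those of the 3 genes with the match that were called at 1.5-fold, so they were chosen by size and do not stand for the 17. Each is in the 8-base form with the match in capitals (chr10:42700944-42700951, chr6:98020941-98020948 and chr15:25973396-25973403, all plus strand, GRCm38, last exon of the transcript used). Ostm1 and Mitf also hold TGCCAAA elsewhere in the 3′-UTR (bases 1785 to 1791 and 1820 to 1826), which is not shown.
Ostm1: aagaaacatacTTGCCAAAtggtagcaggc
Mitf: accttctgactTTGCCAAAaactgtgcaag
Fam134b: tagactgaattTTGCCAAAtgtaagaggga

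**Figure D5:**
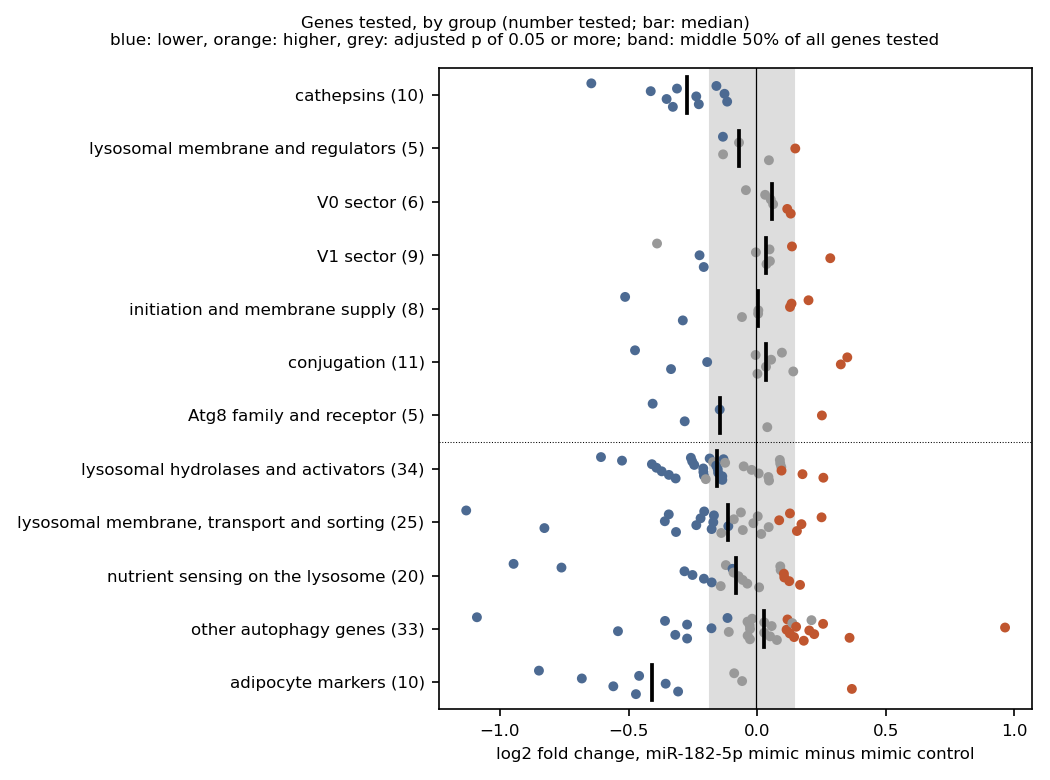
Log2 fold change (x axis) of the tested members by role (above the dotted line), of 4 lists of related genes and of fat cell markers (below it), each point 1 gene and each bar the median. The grey band holds the middle 50% of all genes tested (-0.18 to 0.14). The cathepsins, the other hydrolases and the fat cell markers lie mostly left of 0, with medians of -0.27, -0.16 and -0.41, and the proton pump and autophagy groups lie on both sides.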

How the data were processed

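The authors deposited read counts per gene, not normalized, 1 list per sample. The submitters' processing notes name bcl2fastq, TopHat2, HTSeq and the build mm9, and whether counting used the strand is not given in the sources used here. The 5 tally lines were left out. Reads aligned to several places were kept apart, which can lower the counts of genes with close copies. Counts were analysed in R 4.3.3 with edgeR 4.0.16 (TMM, filterByExpr at its default minimum of 10 reads, the quasi-likelihood fit and its two-sided F-test) and Benjamini-Hochberg adjustment over 13117 genes, with no block. The script was tested on simulated data. CPM was scaled by TMM, and per-length levels divide by the principal transcript of GENCODE M21 (GRCm38), to which all 71 members were matched. Samples of a group differed beyond sampling noise, with a chi-square per degree of freedom of 2.13 to 7.19. The members and lists were chosen with earlier results of these data known. Values in every sample were given for members called at 1.5-fold and for up to 4 members per role with the smallest p among those past the adjusted p, and some others were added after their values were seen (among them Atg2b, Sqstm1, Lamp1 and Tfeb). From the related lists, genes called at 1.5-fold and up to 2 per list and direction were named, with Tecpr2, Galc and Wipi1 added after their values were seen. Alternatives used DESeq2 1.42.0, limma-voom (limma 3.58.1), other scalings and filters, and each sample left out. Figures were drawn with Python 3.11.15 and matplotlib 3.10.9.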

Additional observations from a re-analysis of the deposited data

How the results depend on the processing

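The direction of all 32 members past the adjusted p was kept in each of 13 alternatives (DESeq2, limma-voom, edgeR with RLE or upper-quartile scaling, no filter, at least 10 reads in every sample, the replicate block, and each of the 6 samples left out). Of the 32 calls, 28 passed in every one of them. The 10 cathepsins were lower and Ctsk was called in all 13. Atg4a, Atp6v0a2, Becn1 and Atg13 lost the call in some fits without 1 sample and in none of the other alternatives. Without mimic control replicate 3 the members that rose came to 7, and all 4 were lost. Leaving out 1 sample gave 7 to 11 higher and 21 to 22 lower members, and 1 called at 1.5-fold each time. For the related lists it gave 15 to 22 higher and 44 to 47 lower genes, with 15 higher without mimic control replicate 1. Lamp1 passed the threshold in 5 alternatives (DESeq2, limma-voom, upper-quartile factors, and without mimic control replicate 1 or miR-182-5p mimic replicate 1). Testing against a 1.5-fold change with glmTreat called 0 members, as did a 2-fold cutoff, in place of 1. The replicate numbers do not pair the samples: the deviations of same-numbered samples correlated at -0.18, -0.04 and -0.08. With the number as a block, 11 members were higher, 21 lower and 1 called at 1.5-fold, and the related lists gave 22 higher and 47 lower. Depth limited the precision most for Atp6v1g2, which had 17 to 31 reads per sample and the largest standard error of the 54 members (0.23).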
